A study of Mus musculus with 8 samples.

Results

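Axon injury and regeneration genes are transcripts that sensory neurons are known to make when a peripheral nerve is cut. The 9 genes Atf3, Jun, Sprr1a, Gap43, Sox11, Csf1, Gadd45a, Flrt3 and Ecel1 were chosen by symbol for this known role, and all 9 were found among the 22609 gene symbols counted. Of these, 8 passed the filter on low counts, as did 12518 symbols in all, and Sprr1a did not. RNA was sequenced from dorsal root ganglion (DRG) neurons that had been labelled through their axons with the fluorescent lectin WGA-488, injected into both hindpaws and both thigh muscles. The 4 female and 4 male libraries came from naïve C57BL/6J mice of 8 to 12 weeks, the females in estrous phase. In both sexes ganglia L3 to L5 of both sides, 6 in all, were pooled for a library, taken 2 days after the injection, dispersed into single cells and sorted for the label. Every animal was injected and no nerve injury was part of the design, so the data give levels in labelled neurons and their sex difference. No induction by injury was measured. No uninjected or undissociated sample was among the libraries, so effects of injection and dissociation on these levels were not tested.

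When an axon is cut, the kinases DLK and JNK carry a signal along it to the cell body, where Jun is phosphorylated and the transcription factors Atf3, Jun and Sox11 change the set of genes the neuron uses. Gap43 and Sprr1a then act in the growth cone and the cytoskeleton, Csf1 is a secreted factor that calls up microglia in the spinal cord, and Gadd45a is a stress-response protein. Flrt3 is a membrane protein of adhesion and axon guidance, and Ecel1 is a neuronal endopeptidase of the neprilysin family. Atf3 and Jun are also immediate early genes, which many cells switch on quickly under stress or stimulation.

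Libraries held 4.80 to 7.27 M gene reads (M, 1000000 reads) in females and 6.06 to 7.33 M in males, and 3 reads, the least that was read as a signal, stood for 0.409 to 0.625 counts per 1000000 gene reads (CPM). Xist, the RNA of the inactive X chromosome, had 395 to 764 reads in female and 0 to 6 in male libraries, and Y-linked Ddx3y had 0 in females and 240 to 309 in males. Neuron markers were abundant in every library, with a summed level of 14004 to 19313 CPM over 9 genes in females and 15079.5 to 15579 CPM in males. Female replicate 4 stood apart. Its chi-square per degree of freedom against the other females was 30.1 to 44.9, against 12.1 or less in the remaining same-sex pairs, and its deviation from the median library correlated with exon length (Spearman's rho -0.527 across 12391 genes, which are not independent). The value without it is therefore given beside the difference of each of the 8 injury genes tested and beside the count of each related list. RNA of satellite glia and Schwann cells was present in all libraries, at 11871 to 15291 CPM summed over 15 markers in females and 5642 to 11445 CPM in males. Apoe alone gave 8054 to 10873 CPM of these sums in females and 3068 to 7796 CPM in males, the largest part of each. The glial level used later as a covariate was the log2 of this sum and so rested largely on Apoe. Every female sum lay above every male sum, so a fit with this covariate cannot separate glial RNA from sex. A weaker sex difference in that fit is therefore not read as an effect of glial RNA. In such bulk samples, fewer cells of a type and less RNA per cell cannot be told apart.

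Levels were compared between genes per length. Per kilobase of exon, Gap43 stood highest with 212 ± 27.6 CPM per kb (SD, n = 8), above 98.0% of the 12391 tested genes with a known length. Jun was next with 62.7 ± 17.5 CPM per kb (SD, n = 8), above 91.1% of genes, and Atf3 followed with 18.2 ± 11.7 (SD, n = 8), above 72.8%. Gap43 encodes the growth-associated protein of axon terminals and growth cones. Gadd45a (7.40 to 20.8 CPM per kb over the 8 libraries) and Sox11 (8.16 ± 2.10 CPM per kb, SD, n = 8) had means above the median gene at 6.63 CPM per kb. Flrt3 (5.09 ± 0.428 CPM per kb, SD, n = 8) and Csf1 (2.12 ± 0.591 CPM per kb, SD, n = 8) lay under that median. At the low end were Sprr1a (1.28 ± 0.986 CPM per kb, SD, n = 8) and Ecel1 (0.859 ± 0.536 CPM per kb, SD, n = 8). Among neighbours in this order, the ranges over the 8 libraries did not overlap between Gap43 and Jun, between Sox11 and Flrt3, and between Flrt3 and Csf1. The other 5 pairs of neighbours overlapped, although Jun exceeded Atf3 within each of the 8 libraries.

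**Figure D1:**
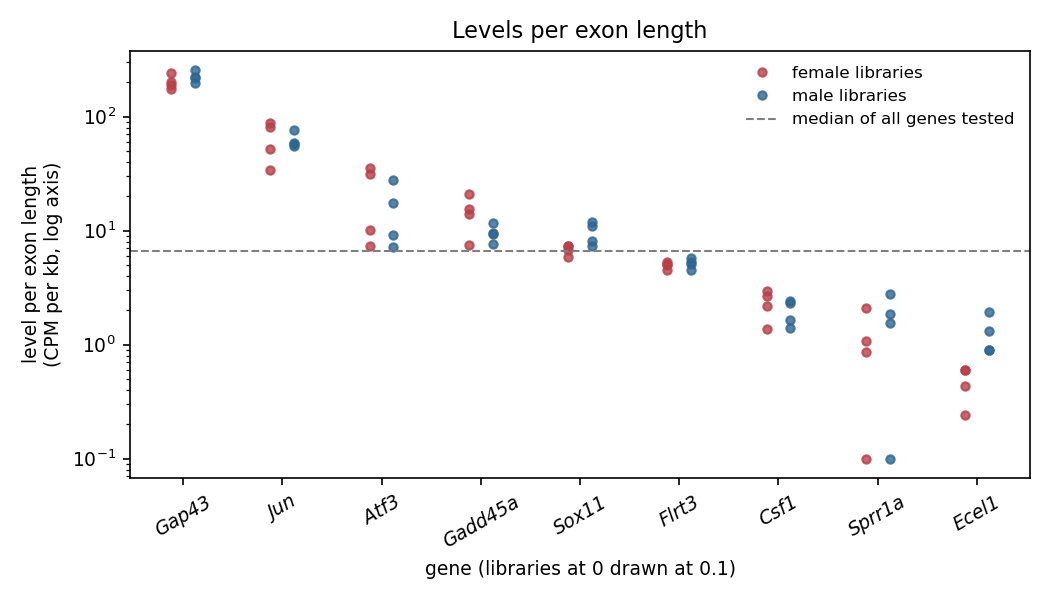
Level of each of the 9 genes per kilobase of exon (CPM per kb, log axis) in the 4 female (red) and 4 male (blue) libraries, with the median of all tested genes at 6.63 CPM per kb as a dashed line. Gap43 lies highest at 173 to 255 CPM per kb, and Ecel1 and Sprr1a lie lowest; the 2 libraries with no Sprr1a read are drawn at 0.1.

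The sexes were compared over all genes with the quasi-likelihood test of edgeR, which called 11 of 12518 genes (0.0879%) at an adjusted p-value under 0.05. Females had the higher level for 3 of them, Xist included, and males for 8, Ddx3y included, but the split was 70 and 14 without female replicate 1 and 19 and 25 with DESeq2. None of the 8 injury genes tested was among them. At an unadjusted p-value under 0.05, 2 of the 8 passed, Ecel1 and Sox11, both higher in males, where 7.11% of all genes passed in either direction and 2.67% as higher in males. The same 2 genes were the ones whose female and male CPM did not overlap, against 5.52% of all genes in either direction and 2.52% with males higher. Of the 8 genes 4 had a log2 fold change above 0 and 4 below, with a median of -0.02 against 0.00 for all genes tested, and DESeq2, which also tested Sprr1a, and limma-voom called 0 of them too, with 2 at an unadjusted p-value under 0.05 in each.

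**Figure D2:**
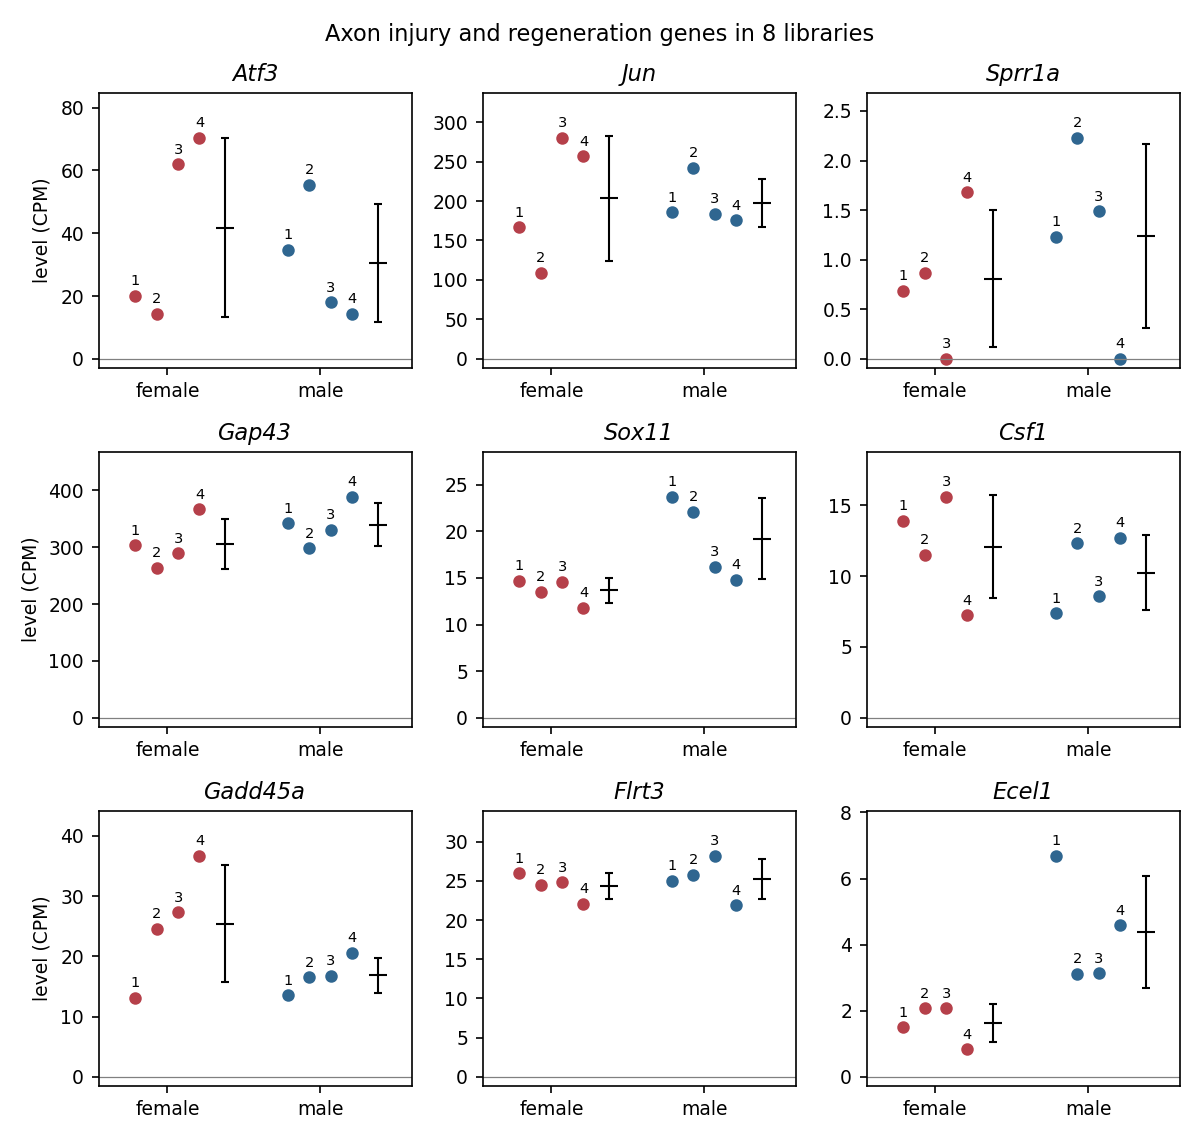
Level (CPM) of each gene in the 4 female (red) and 4 male (blue) libraries, numbered by replicate; the bar beside each group is its mean ± SD. Atf3 runs from 14.4 to 70.4 CPM within females and from 14.3 to 55.4 within males, whereas the Ecel1 values of the sexes do not overlap.

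Ecel1, the endopeptidase gene (chromosome 1, 89044230 to 89053096, build mm9, as for the other genes below), had the largest difference of the 8 genes tested. Its level was 1.51, 2.08, 2.08 and 0.842 CPM in female replicates 1 to 4 and 6.69, 3.12, 3.14 and 4.59 CPM in male replicates 1 to 4. Every male library lay above every female library, but few reads lay behind these values, 5 to 12 in a female and 19 to 49 in a male library. Means were 1.63 ± 0.590 CPM in females and 4.38 ± 1.68 CPM in males (SD, n = 4 each), a log2 fold change of -1.46 ± 0.37 (SE), female over male. This was 2.75-fold higher in males, with a 95% interval of 1.55 to 4.89, an unadjusted p-value of 0.00263 and an edgeR adjusted p-value of 0.492. The log2 fold change was -1.25 without female replicate 4 and -1.17 without male replicate 1, the library with the highest level, and the unadjusted p-value was under 0.05 in each of 8 fits with a single library removed. Glial RNA ran opposite to Ecel1 at the ends: male replicate 1, highest in Ecel1, had the lowest summed glial level (5642 CPM), and female replicate 4, lowest in Ecel1, had the highest (15291 CPM). Female replicate 4 also had the highest summed neuron level, 19313 CPM against 14004 to 15579 CPM elsewhere, so its high sum was not limited to glia. With the glial level as a covariate the log2 fold change was -0.73 with an unadjusted p-value of 0.0778. No test separated the part of glial RNA from that of sex.

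Sox11, a transcription factor of developing and regenerating neurons (chromosome 12, 28025562 to 28027574), had 14.7, 13.5, 14.6 and 11.8 CPM in female replicates 1 to 4. In male replicates 1 to 4 it had 23.7, 22.1, 16.2 and 14.8 CPM. The gap between the sexes was narrow, since the highest female (107 reads) and the lowest male (100 reads) were at nearly the same level. The log2 fold change was -0.51 ± 0.19 (SE), 1.43-fold higher in males with a 95% interval of 1.06 to 1.91, with an unadjusted p-value of 0.0218 and an edgeR adjusted p-value of 0.651. It stayed at -0.45 without female replicate 4. Without male replicate 1 it was -0.39 with an unadjusted p-value of 0.0747, without male replicate 2 the p-value was 0.0674, and with the glial level as a covariate the log2 fold change was -0.23. The same library, male replicate 1, was highest for both Sox11 and Ecel1, and female replicate 4 was lowest for both. Their log2 levels correlated over the 8 libraries with Pearson's r = 0.77 (Spearman's rho 0.83), or 0.73 without male replicates 1 and 2, the second-highest r among 28 pairs of the 8 genes. The lowest r of the 28 was that of Sox11 with Gadd45a, -0.71, or -0.77 without the same male libraries. These pairs were picked by their values and r includes the difference of the sexes, so no test was made.

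Atf3, which encodes a stress-induced transcription factor of the ATF family (chromosome 1, 192994175 to 193007219), had the widest spread within a sex of the 8 genes tested. It was at 20.1, 14.4, 61.9 and 70.4 CPM in female replicates 1 to 4 and at 34.8, 55.4, 18.0 and 14.3 CPM in male replicates 1 to 4. Each sex had libraries at both ends, and the range was 4.89-fold within females and 3.86-fold within males. The SD within a sex was 1.01 on the log2 scale, more than in 99.8% of the 12518 genes tested, whose median was 0.266. Against this spread, the means of 41.7 ± 28.5 CPM in females and 30.6 ± 18.8 CPM in males (SD, n = 4 each) could not be told apart. The estimated log2 difference, female minus male, was 0.42 ± 0.54 (SE), edgeR gave 0.866 as its adjusted p-value, and the 95% interval ran from 0.584-fold to 3.05-fold. Without female replicate 4 the log2 fold change was 0.03.

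Jun, the AP-1 subunit that JNK phosphorylates (chromosome 4, 94715725 to 94718913, a gene of a single exon), followed a similar order. Its level was 167, 109, 280.2 and 257 CPM in female replicates 1 to 4 and 186, 242, 184 and 176 CPM in male replicates 1 to 4. The 4 libraries with the most Atf3, namely female replicates 4 and 3 and male replicates 2 and 1, were also the 4 with the most Jun. The sexes overlapped, their log2 difference being 0.03 ± 0.26 (SE), the edgeR adjusted p-value 0.985 and the 95% interval 0.687-fold to 1.51-fold. Its sign was negative in 7 of 15 alternative fits, among them the one without female replicate 4 (-0.10). Jun shares 232 exon bases with BC042782 on the other strand, and whether the counting used strand is not stated.

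Over the 8 libraries the log2(CPM + 1) levels of Atf3 and Jun correlated with r = 0.86 (rho 0.86), the highest of the 28 pairs, and with r = 0.75 without female replicates 3 and 4. The genes most like Atf3, ranked by Pearson's r among 12517 genes over the 8 libraries, were Btg2 (0.96), 1810055G02Rik (0.95), Polr1e (0.95), Egr2 (0.94) and Dusp1 (0.94). Btg2, Egr2 and Dusp1 are known immediate early genes. Fos, the AP-1 partner of Jun, was at place 13 (0.91), Egr1 at 19 (0.89), Junb at 26 (0.87) and Jun at 34. A ranking of many genes over few libraries picks out high values, so these are descriptions and carry no test. After the mean of each sex was taken out, r was 0.96 for Btg2, 0.92 for Fos and 0.89 for Jun. For the injury genes other than Jun, r with Atf3 ran from -0.30 to 0.39, and it depended on the same pair of female libraries: without female replicates 3 and 4 it was 0.90 for Sox11, against 0.12 over all 8, and -0.52 for Gadd45a, against 0.39.

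**Figure D3:**
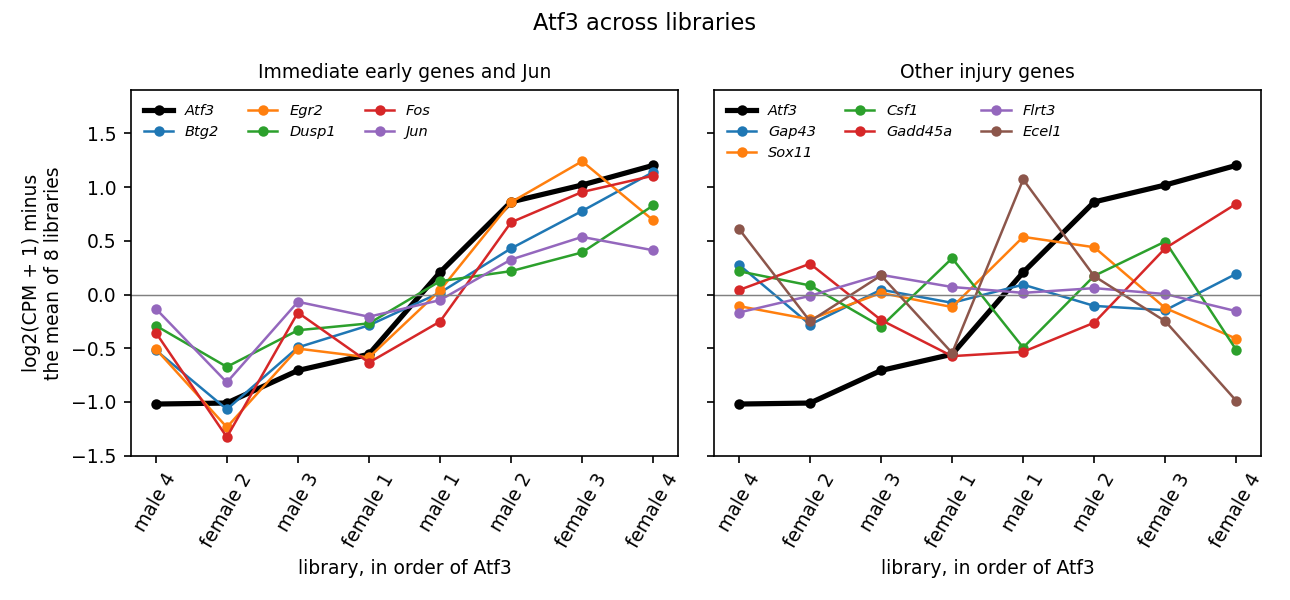
log2(CPM + 1) of single genes, minus each gene's mean over 8 libraries, with libraries ordered from the lowest to the highest Atf3 (thick black line in both panels). The left panel shows Btg2, Egr2, Dusp1, Fos and Jun, which are low where Atf3 is low and high in male 2, female 3 and female 4; the right panel shows the other tested injury genes, whose r with Atf3 over all 8 libraries lies between -0.30 and 0.39.

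The summed level of 10 immediate early genes listed as responsive to cell dissociation showed the size of this spread. It was 419, 295, 881 and 966 CPM in female replicates 1 to 4 and 457, 744, 487 and 428 CPM in male replicates 1 to 4. The 3 libraries with the highest sums, female replicates 4 and 3 and male replicate 2, were the 3 with the highest Atf3. None of the 9 tested genes of this list had an unadjusted p-value under 0.05 between sexes (edgeR), where 7.11% of all genes did. Of the 9, 8 had a log2 fold change above 0, with a median of 0.23. The count stayed at 0 without female replicate 4, where 11.4% of all genes passed and the log2 fold change of Fos turned to -0.06. Over all libraries Fos was at 178 CPM in females and 142 CPM in males (log2 fold change 0.30 ± 0.48 SE, edgeR adjusted p-value 0.889), and Junb at 92.7 and 90.5 CPM.

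The promoters of the 9 injury genes were read for sequences that ATF and AP-1 factors are known to bind, as Atf3 and Jun encode such factors. The set of RefSeq promoter sequences used here (build GRCm38.p6) held 8 of the 9 genes and had no entry for Gap43. In it, the 250 bases before each start were searched on both strands. The letters were chosen after the promoters had been read, and no test was made. The AP-1 motif TGACTCA was present in 1 of the 8, Sprr1a, and in 4.46% of 32851 promoters of the same length. The cyclic AMP response element TGACGTCA was present in none of the 8 and in 1.55% of promoters. Of 2 near forms, TGACNTCA was present in 4 of the 8 (Jun, Flrt3, Sox11, Sprr1a) and in 7.49% of promoters, and TTACNTCA in 3 of the 8 (Atf3, Flrt3, Jun) and in 2.86% of promoters. TGACNTCA takes in TGACGTCA, and the near forms do not share positions with each other here. The stretches, with GRCm38.p6 coordinates, carry the match in capitals, are written 5′ to 3′ along the minus strand, on which all 9 genes lie, and are shown for Atf3 and Jun, for the AP-1 matches and for Sox11. TGAGTCA is TGACTCA, and TGATGTCA is TGACATCA, read on the opposite strand:
Atf3 (chr1:191183334-191183368, match from 10 bases before the start): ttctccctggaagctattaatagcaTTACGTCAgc
Jun (chr4:95052235-95052292, from 45 bases before the start): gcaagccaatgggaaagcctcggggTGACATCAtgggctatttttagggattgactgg
Jun (chr4:95052354-95052411, from 164 bases before the start): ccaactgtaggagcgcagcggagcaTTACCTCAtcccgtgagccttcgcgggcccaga
Sprr1a (chr3:92485996-92486052, from 146 bases before the start): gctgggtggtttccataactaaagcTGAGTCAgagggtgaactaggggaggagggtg
Sprr1a (chr3:92485966-92486022, from 116 bases before the start): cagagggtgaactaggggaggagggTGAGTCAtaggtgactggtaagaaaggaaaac
Sox11 (chr12:27342728-27342785, from 42 bases before the start): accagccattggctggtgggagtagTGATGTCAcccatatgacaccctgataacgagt

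Sprr1a, whose product is a small proline-rich protein of the cornified skin layer that injured neurons also make (chromosome 3, 92287877 to 92289816), was close to the limit of detection. It had 5, 5, 0 and 10 reads in female replicates 1 to 4 and 9, 15, 9 and 0 reads in male replicates 1 to 4. The 2 libraries without a read, female replicate 3 and male replicate 4, allow up to 0.625 and 0.444 CPM, counting error only. The sexes overlapped, and a fit without the filter put the log2 difference at -0.58 ± 0.81 (SE), where edgeR gave 0.86 as its adjusted p-value. The keratinocyte markers Krt5 and Ivl had 0 reads in all 8 libraries, and the 6 keratinocyte markers together reached at most 7.56 CPM. The paralogue Sprr1b also had 0 reads in every library.

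Gap43 (chromosome 16, 42248555 to 42340764) was at 304, 264, 289.8 and 367 CPM in female replicates 1 to 4 and at 342, 298, 331 and 389 CPM in male replicates 1 to 4. This was one of the steadiest of the 9 genes, with a highest value 1.47 times the lowest over all libraries. The estimated log2 difference, female minus male, was -0.17 ± 0.13 (SE), edgeR gave 0.798 as its adjusted p-value, and the 95% interval ran from 0.731-fold to 1.08-fold. Without female replicate 4 the log2 fold change was -0.27 with an unadjusted p-value of 0.0181. Flrt3 (chromosome 2, 140476650 to 140497205) varied least, from 21.9 CPM in male replicate 4 to 28.2 CPM in male replicate 3, with all 4 females at 22.1 to 26.0 CPM. Its SD within a sex, 0.133 on the log2 scale, was lower than that of all but 10.8% of genes. The log2 fold change of Flrt3 was -0.07 ± 0.14 (SE) and -0.02 without female replicate 4, with a 95% interval of 0.772-fold to 1.17-fold and an edgeR adjusted p-value of 0.908 over all libraries.

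Gadd45a (chromosome 6, 66985090 to 66987451) was at 13.1, 24.6, 27.3 and 36.7 CPM in female replicates 1 to 4 and at 13.5, 16.5, 16.8 and 20.6 CPM in male replicates 1 to 4. Female replicate 1 was the lowest of the 8 libraries and the other 3 females were the highest, so the sexes overlapped through that library. The estimated log2 difference, female minus male, was 0.57 ± 0.27 (SE), edgeR gave 0.707 as its adjusted p-value, and its 95% interval ran from 0.977-fold to 2.26-fold. It was 0.80 without female replicate 1 (unadjusted p-value 0.00231) and 0.34 without female replicate 4 (unadjusted p-value 0.205). Gadd45a shares 337 exon bases with E230016M11Rik on the other strand, which leaves part of its level uncertain if strand was not used. With the glial level as a covariate the log2 fold change was 0.21.

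Csf1 (chromosome 3, 107543966 to 107563387) was at 13.9, 11.5, 15.6 and 7.24 CPM in female replicates 1 to 4 and at 7.37, 12.3, 8.59 and 12.7 CPM in male replicates 1 to 4. The sexes overlapped fully, their log2 difference being 0.21 ± 0.27 (SE), the edgeR adjusted p-value 0.857 and the 95% interval 0.771-fold to 1.75-fold. Without female replicate 4 the difference was 0.40. Csf1r, its receptor on macrophages, was near the floor with 0 to 1.56 CPM, and the 12 macrophage markers together had 8.39 to 23.6 CPM in females and 3.41 to 10.1 CPM in males. Il34, the other ligand of that receptor, was at 13.5 to 26.9 CPM.

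**Figure D4:**
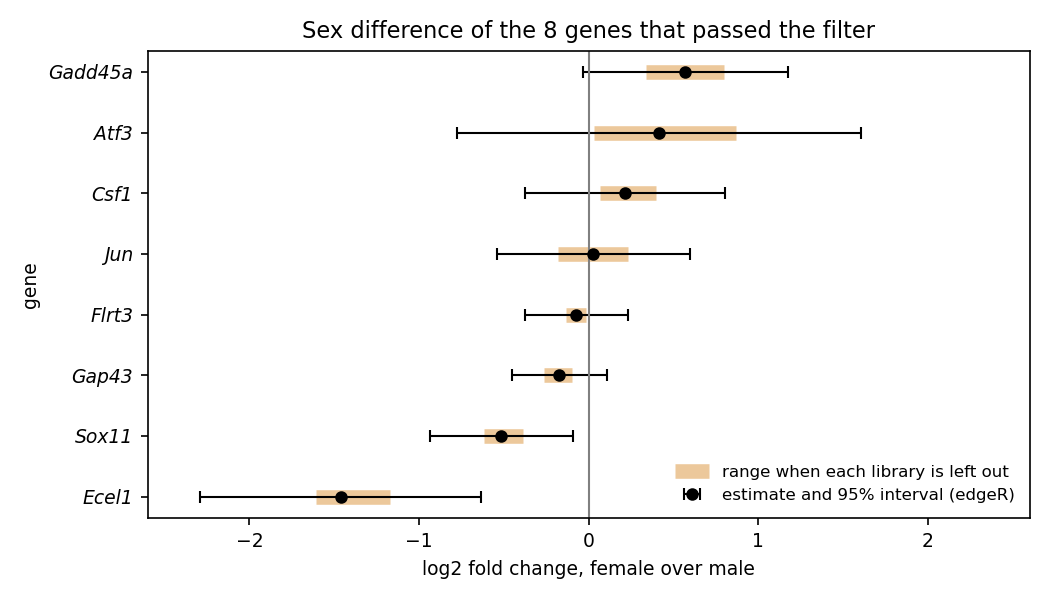
log2 fold change, female over male, of the 8 injury genes that passed the filter, with the 95% interval (black) and the range of the estimate over fits with a single library removed (orange). Only the intervals of Sox11 and Ecel1 exclude 0, and neither gene passed after adjustment over all genes.

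Further genes that axon injury induces in DRG neurons were examined as a list of 33, none of them among the 9. Of these, 26 passed the filter, 0 were called and 4 had an unadjusted p-value under 0.05, all 4 higher in males (edgeR), where 7.11% of all genes passed in either direction and 2.67% with males higher. They were Adcyap1, encoding the neuropeptide PACAP (155 CPM in females, 269 CPM in males, log2 fold change -0.82 ± 0.19 SE, adjusted p-value 0.413), Gch1, the first enzyme of tetrahydrobiopterin synthesis (-0.57), the hyaluronan receptor gene Cd44 (-0.43) and the calcium channel subunit gene Cacna2d1 (-0.50). The female and male values of all 4 overlapped. Glial RNA ran opposite to these genes in one library: Adcyap1, Cd44 and Cacna2d1 were highest in male replicate 1 (344, 733 and 163 CPM), the library with the lowest glial sum and the highest sum of this list (6359 CPM). Without male replicate 1, 2 genes passed, Adcyap1 and, higher in females, Stmn4, and with the glial level as a covariate only Stmn4 did, where 4.66% and 2.20% of all genes passed. Without female replicate 4, 3 genes passed (Adcyap1, Cacna2d1 and Gch1), where 11.4% of all genes did. The 2 most abundant genes of the list were the tubulin gene Tuba1a (2992 CPM in females and 2964 CPM in males) and Stat3, a transcription factor of cytokine signalling (550.0 and 668 CPM). The median log2 fold change was -0.18, with 19 of 26 genes below 0. Vip and Ankrd1 had no read in any library, and Reg3b, Il6 and Cckbr had at most 1.92 CPM each. Npy, a neuropeptide that axotomised neurons make, had 0 to 3.12 CPM in females and 0.594 to 10.8 CPM in males, with 8.26 and 10.8 CPM in male replicates 3 and 4. Gal, an injury-induced neuropeptide that some intact neurons also make, was at 25.4 to 47.3 CPM.

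Genes that fall after axon injury were listed in the same way, and all 18 passed the filter. None was called, and 4 had an unadjusted p-value under 0.05, as had 7.11% of all genes. Nefh, the heavy neurofilament chain of large neurons, was at 1108 CPM in females and 500.2 CPM in males (log2 fold change 1.13 ± 0.33 SE, edgeR adjusted p-value 0.600). Kcna2, a potassium channel of myelinated axons, was at 31.3 and 16.2 CPM (0.93 ± 0.22 SE, edgeR adjusted p-value 0.413), with no overlap between sexes. The peptide genes Tac1 (-0.51) and Calca (-0.35) were higher in males. The same 4 passed without female replicate 4 (11.4% of all genes did) and Kcna2 and Nefh alone without male replicate 1 (4.66%). With the glial level as a covariate 0 of the 18 passed, against 2.20% of all genes, and the log2 fold changes of Nefh and Kcna2 were 0.64 and 0.44. The median of the list was 0.00, with 9 genes on each side, and Nefl was its most abundant gene at 6831 CPM in females and 5977 CPM in males.

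The DLK and JNK pathway was represented by 12 genes, all above the filter. None had an unadjusted p-value under 0.05 in edgeR, where 7.11% of all genes did. Without female replicate 4, 3 passed (Mapk10, Mapk8ip1 and Mycbp2), where 11.4% of all genes did. Map3k12, which encodes DLK, was at 72.8 CPM in female replicate 4 and at 122 to 143 CPM in the other 7 libraries. The scaffold genes Mapk8ip3 (505 CPM in females, 562 CPM in males) and Mapk8ip2 (514 and 536 CPM) were the most abundant. Summed over the 12 genes, female replicate 4 had 1735 CPM against 2416 to 2833 CPM in the other libraries. The median log2 fold change was -0.11.

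Relatives and partners of the 9 genes, 29 in all, had 24 genes above the filter, 0 called and 2 with an unadjusted p-value under 0.05, against 7.11% of all genes. Fosl2, which encodes an AP-1 partner of Jun, was at 4.04 CPM in females and 6.21 CPM in males (log2 fold change -0.65 ± 0.23 SE, edgeR adjusted p-value 0.637). Marcksl1, encoding a substrate of protein kinase C as Gap43 does, was at 12.8 and 9.23 CPM (0.45 ± 0.19 SE, edgeR adjusted p-value 0.696). Ece1, a protease gene of the same family as Ecel1, was at 155 CPM in each sex with a log2 difference of -0.02 ± 0.22 (SE), and Sox4, the closest relative of Sox11 in its group, was at 4.67 to 9.43 CPM over all libraries. Fos and Ece1 had the highest means over the 8 libraries, and Fos exceeded Ece1 in 3 of them (female replicates 3 and 4 and male replicate 2). Without female replicate 4, 5 genes passed (Fosl2, Marcksl1, Atf4, Gadd45g and Ece1), with Ece1 then at 0.19, where 11.4% of all genes did. Without male replicate 1 Fosl2 alone passed (4.66% of all genes). With the glial level as a covariate 0 passed (2.20% of all genes), while the log2 fold changes stayed about as large, -0.62 for Fosl2 (unadjusted p-value 0.0842) and 0.51 for Marcksl1 (unadjusted p-value 0.09).

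**Figure D5:**
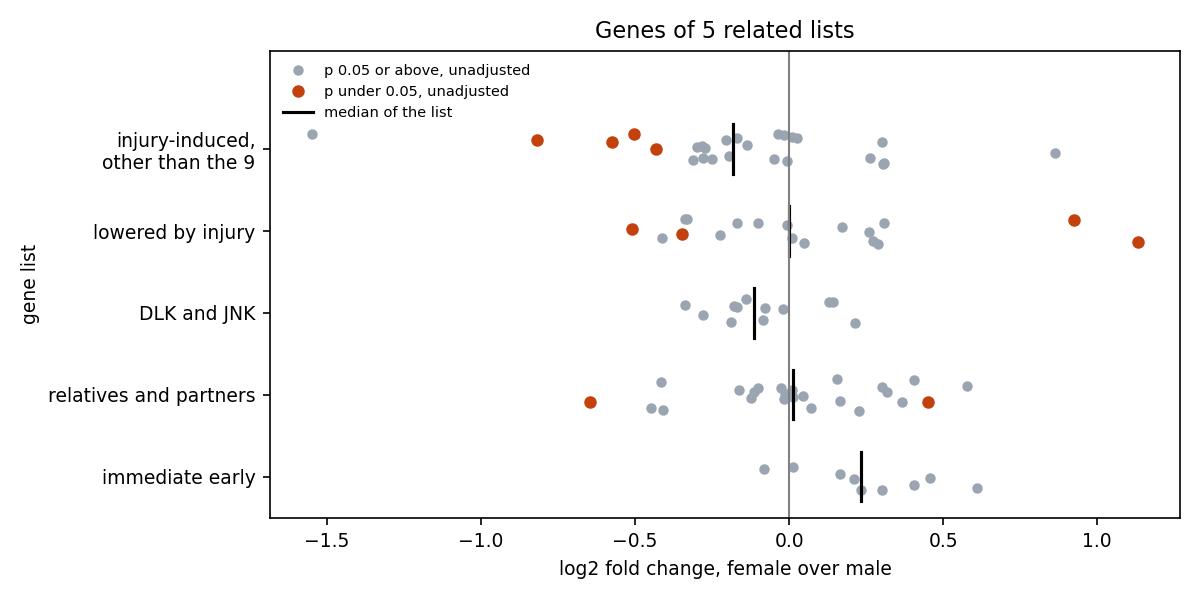
log2 fold change, female over male, of the tested genes in 5 related lists; orange points have an unadjusted edgeR p-value under 0.05, grey points do not, black bars are medians, and vertical scatter within a list has no meaning. The 4 orange points among the 26 further injury-induced genes all lie below 0, and the lists lowered by injury and of relatives have orange points on both sides.

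Marker lists of other cells were set beside these results. Of 15 markers of satellite glia and Schwann cells, all tested, 0 were called and 6 had an unadjusted p-value under 0.05, each with the higher mean in females, against 7.11% of all genes. Among them were Sox10 (73.1 and 23.3 CPM in females and males), Apoe (8940.1 and 5818 CPM), Mbp, Mal and Prx. Pmp22, also abundant, was at 1100.2 CPM in females and 1165 CPM in males. Of 8 fibroblast markers, 6 were tested and 4 had an unadjusted p-value under 0.05, again with the higher mean in females (Col1a2, Dcn, Lum and Bgn), with sums of 104 to 156 CPM in females and 45.8 to 88.8 CPM in males. Of the macrophage list 3 of 12 were tested, and Cd74 and Lyz2 had an unadjusted p-value under 0.05. Without female replicate 4 the counts were 7 for glia, 1 of them higher in males, 2 for fibroblasts and 1 for macrophages, where 11.4% of all genes passed. The study named Sox10, Cd74, Bgn and Islr of these lists from the same libraries, so in these data they are not independent markers. It also reports Cd74, Bgn and Islr as higher in females in neurons of other preparations and by quantitative RT-PCR. The repair Schwann cell list had 2 of 5 genes above the filter, Shh (21.2 and 16.3 CPM) and Runx2 (5.06 and 7.11 CPM), while Olig1, Gdnf and Artn had at most 0.297 CPM in any library. Hbb-b1 and Hba-a1, the haemoglobin genes listed for blood, had 0 reads throughout, and the endothelial and blood list, led by Cldn5 and Pecam1, had at most 13.6 CPM, in female replicate 4. Reads without a unique alignment were not counted, so 0 reads does not show that haemoglobin RNA was absent. The keratinocyte list was led by Krt10 and Krt1. No neuron marker of 9 had an unadjusted p-value under 0.05, although Elavl4 and Prph did without female replicate 4, and the most abundant were Tubb3 (5008 and 4839.9 CPM in females and males) and Prph (3338 and 3520.3 CPM). The part of these cells in the differences above was not tested.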

How the data were processed

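Sorted WGA-488-labelled DRG neurons of 4 female and 4 male mice were sequenced as single reads of 50 bases after SMART-seq2 amplification. Reads had been aligned by the authors to mm9 using TopHat2 and counted by HTSeq-count. Each deposited value is a raw read count of a gene symbol. Versions, annotation release and strand option are not given in the sources used here. Reads carry no molecular identifiers, so the floors of 3 reads cover counting error only, while the intervals of fold changes rest on the spread between libraries. Summary lines were dropped: reads outside features were 57.8% to 60.5% of uniquely aligned reads. Positions and exon lengths came from GENCODE M1 on NCBIM37 (mm9), to which 95.9% of symbols matched.

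Groups and numbers came from the sample titles, which number 4 libraries of each sex and do not mention animals. The paper gives 4 samples of each sex with 6 ganglia in each. Counts were tested with the edgeR 4.0.16 quasi-likelihood test (R 4.3.3, TMM factors, default filter on group, sex alone, Benjamini-Hochberg over 12518 genes). SEs came from the estimate and its F statistic. CPM used the sum of gene reads, and SDs within a sex used TMM-scaled log2(CPM + 0.5). The test was also tried on simulated data. The other settings tried were limma-voom (limma 3.58.1), DESeq2 1.42.0, other scalings, no filter, a replicate block, a glial covariate and leaving out each library. For the related and marker lists, the fits without female replicate 4, without male replicate 1 and with the glial covariate were chosen after seeing the data. Named were all 9 genes, and from each list those with an unadjusted p-value under 0.05 and the 2 most abundant; others were added after their values were seen. Some genes that this rule names are not reported here. The members and lists were chosen with earlier results of these data known.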

Additional observations from a re-analysis of the deposited data

Results flagged for a closer look

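In each sex, the highest and lowest libraries were set against the other 3 for the 9 genes, the summed lists and depth. Of 44 such comparisons 3 had a library whose gap was large for its group, where chance gives about 2.2. Jun was at 242 CPM in male replicate 2, against 176 to 186 CPM in the other males, a gap of 0.852 of the range. The summed satellite glia and Schwann cell markers were at 15291 CPM in female replicate 4, against 11871 to 12015 CPM in the other females (0.958 of the range). The summed endothelial and blood markers were at 13.6 CPM in the same library, against 2.92 to 4.16 CPM (0.884 of the range). Summed neuron markers were highest there too, at 19313 CPM against 14004 to 15014 CPM in the other females, a gap this rule did not flag. No explanation was tested.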

How the results depend on the processing

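None of the injury genes tested, 8 or, where Sprr1a passed, 9, was called in the 15 alternative fits, and the number whose sexes did not overlap stayed at 2 on TMM-scaled CPM and was 2 to 3 when each library was left out, the third being Gadd45a without female replicate 1. With fewer libraries more genes separate, from 7.46% of all genes without male replicate 1 to 12% without female replicate 1, against 5.52% over all libraries. The number of genes called over the whole table, 11, became 44 with DESeq2, 5 with the glial level as a covariate and 6 with the replicate block, and ran from 7 to 84 when each library was left out, highest without female replicate 1 and lowest without male replicate 4; the cause was not tested. The replicate numbers gave no pairing, since deviations of same-numbered libraries correlated from -0.109 to 0.144. The sign of Jun turned with the replicate block (-0.046), the glial covariate (-0.13) and limma-voom (-0.061), and its log2 fold change ran from -0.18 to 0.23 when each library was left out, negative without female replicate 3 (-0.18), female replicate 4 (-0.10), male replicate 3 (-0.005) or male replicate 4 (-0.02). The other 7 tested genes kept their sign in 15 of 15 alternatives. Ecel1 kept an unadjusted p-value under 0.05 in 14 of these and Sox11 in 12. Ecel1 had an adjusted p-value of 0.144 to 1 and Sox11 of 0.408 to 1. Sprr1a (0 to 15 reads in a library) and Ecel1 (5 to 49 reads) had the lowest mean CPM of the 9 genes, and the effect of depth was not tested.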
